A study of Mus musculus with 8 samples.

Results

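The Krüppel-like factors (KLF) are a family of transcription factors, and 10 of their genes are described here in mouse neural progenitor cells with and without 53BP1: Klf2, Klf3, Klf4, Klf6, Klf7, Klf9, Klf10, Klf12, Klf13 and Klf15. They were taken by gene symbol from a table of read counts for 32499 genes, which holds 17 Klf symbols in all, and every one of the 10 was found. The 53BP1 KO group has 4 libraries from embryos that carry, at the Trp53bp1 locus, an in-frame deletion made by CRISPR in C57BL/6J zygotes over the targeted allele Trp53bp1tm1Jc. The control group has 4 libraries from wild-type embryos, and both groups are labelled C57BL/6 and embryonic day 14. Neural tubes were dissociated with collagenase, and progenitors were sorted with the fluorescent dye NeuroFluor CDr3. The labels do not say whether cells were cultured after sorting, whether embryos were pooled, or whether the libraries of a group came from separate embryos, so the p-values reflect variation among these libraries, which may be technical.

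KLF proteins end in 3 zinc fingers that bind GC-rich DNA and CACCC boxes, and their other domains decide whether they activate or repress. KLF2, KLF4, KLF6 and KLF7 act mostly as activators, KLF3 and KLF12 repress through the corepressor CtBP, and KLF9, KLF10 and KLF13 recruit the corepressor Sin3A. Several of the genes respond within minutes to hours to growth factors, stress, glucocorticoid or thyroid hormone. In neurons of the mouse, KLF4 and KLF9 restrain axon growth, while KLF6 and KLF7 promote it.

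Library depth lay between 11081419 and 24339621 counts in the 53BP1 KO group and between 15343046 and 18189045 counts in the control group, and 3 counts of a gene corresponded to between 0.126 and 0.261 CPM (counts scaled by library sizes adjusted with TMM). All values below are CPM unless stated otherwise. Trp53bp1 itself had 27.1 ± 6.36 CPM in 53BP1 KO libraries and 26.8 ± 0.349 CPM in control libraries (SD, n = 4 each); a count over the whole gene does not check an in-frame deletion, so the group names are those of the labels. Xist, the RNA of the inactive X chromosome, had between 9 and 16 counts in 53BP1 KO libraries and between 23853 and 26134 counts in control libraries, and Ddx3y on the Y chromosome had between 579 and 1064 counts in 53BP1 KO libraries and 0 in every control library. Genotype and sex therefore cannot be told apart in any difference below. Control 4 stood apart from the other controls for several KLF genes, and the fold changes of Klf3, Klf6, Klf7 and Klf9 are given with and without it. Fewer cells of a type and less RNA per cell cannot be told apart in these bulk samples.

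Of the 10 genes, all of which could be tested, 2 rose in 53BP1 KO libraries (Klf4 and Klf15), none fell, and 8 did not pass an adjusted p of 0.05 in edgeR's quasi-likelihood test. Over all 15021 genes tested, 30.0% passed, 16.1% being higher and 13.9% lower in 53BP1 KO libraries; with 10 genes, the share of KLF genes called was not set apart from this. For Klf3, Klf4 and Klf15, 3 of the 10, no 53BP1 KO library fell within the control range or the reverse, against 29.9% of all genes tested. The median log2 fold change of the 10 genes was 0.17, and that of all genes tested was 0.00. Without a filter on low counts 5 of the 10 were called, against 15.2% of the 30508 genes then tested. That larger set takes in low-count genes that the filter removes, whereas all 10 KLF genes passed the filter, so these shares are of unlike gene sets. With voom and sample quality weights 4 were called, against 40.6% of all genes. Leaving out 1 library at a time gave 2 or 3, against between 21.0% and 30.2% of all genes then tested.

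**Figure D1:**
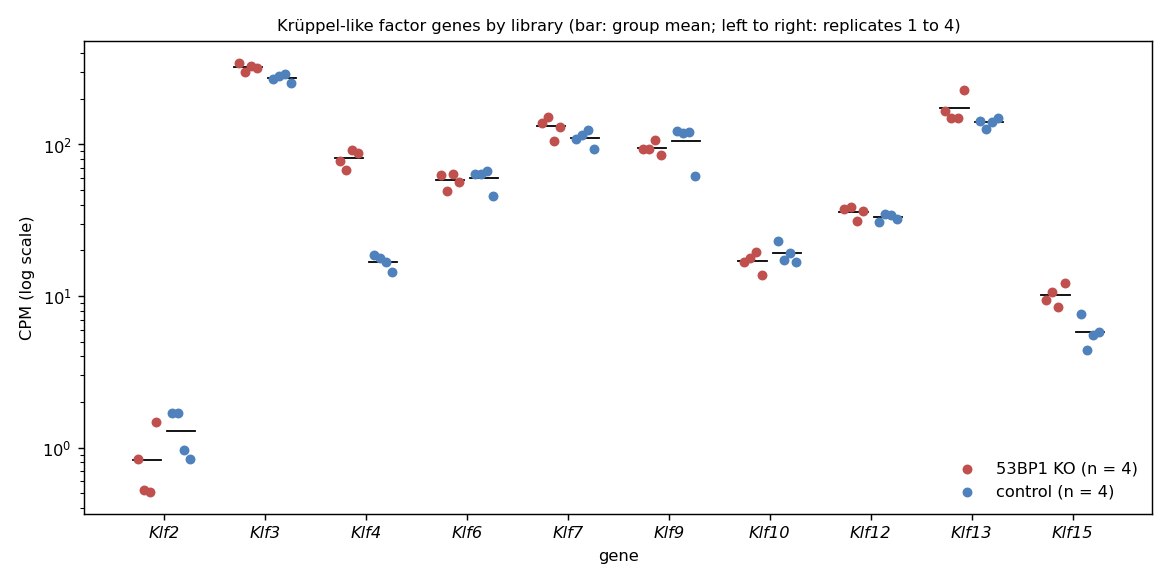
CPM of the 10 KLF genes on a log axis, with 1 point for each library (53BP1 KO left, control right, replicates 1 to 4 from left to right) and a bar at each group's mean. Klf4 lay between 68.0 and 92.4 CPM in 53BP1 KO libraries, above every control, and control 4 was the low point of Klf6 and Klf9.

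Klf4, on chromosome 4, is an activator and repressor that maintains epithelial differentiation and is known as a reprogramming factor. It had 78.2, 68.0, 92.4 and 88.5 CPM in 53BP1 KO libraries 1 to 4, against 18.6, 18.0, 16.7 and 14.4 CPM in controls 1 to 4. The lowest 53BP1 KO library was thus well above the highest control, and the values rest on 6121 counts in 53BP1 KO libraries and 1151 in controls. The mean of 81.8 ± 10.9 CPM in 53BP1 KO libraries and 16.9 ± 1.87 CPM in control libraries corresponded to a 4.84-fold rise (95% interval 4.04 to 5.79; log2 fold change 2.27, SE 0.12, edgeR adjusted p = 7.49e-09). This was the change with rank 96 from the top among all genes tested. The log2 fold change lay between 2.19 and 2.35 under the 16 alternative settings, and Klf4 was called in each. As a share of the CPM summed over the 10 genes, Klf4 made up between 7.74% and 10.2% in 53BP1 KO libraries and between 2.03% and 2.35% in control libraries.

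The genes whose library-by-library pattern was most like that of Klf4 were S100b, Ero1l and Cebpg. Likeness was the root mean square difference over the 8 libraries of log2 CPM centred on each gene's mean, which was 0.12 for S100b, 0.13 for Ero1l and 0.16 for Cebpg, against a median of 1.15 over the 10109 genes compared. S100b, which encodes a calcium-binding protein of astrocytes, had 89.5 ± 10.2 CPM in 53BP1 KO libraries and 19.5 ± 1.56 CPM in control libraries. Ero1l, which encodes an oxidase of the endoplasmic reticulum, had 100.4 ± 4.93 CPM in 53BP1 KO libraries and 21.7 ± 2.27 CPM in control libraries. Cebpg, which encodes a basic leucine zipper transcription factor, had 632.3 ± 71.3 CPM in 53BP1 KO libraries and 144.2 ± 7.24 CPM in control libraries. Since the groups differed strongly for all of these genes, the measure mostly reflects the size of the group difference.

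Klf15, on chromosome 6, is a glucocorticoid-induced factor known for its control of amino acid catabolism in muscle and liver. It had 9.45, 10.7, 8.46 and 12.3 CPM in 53BP1 KO libraries, against 7.56, 4.40, 5.55 and 5.82 CPM in controls. The groups did not overlap, but the gap between 53BP1 KO 3 and control 1 was small beside the spread within each group. The mean was 10.2 ± 1.65 CPM in 53BP1 KO libraries and 5.83 ± 1.31 CPM in control libraries, a 1.75-fold rise (95% interval 1.35 to 2.27; log2 fold change 0.81, SE 0.18, edgeR adjusted p = 0.00301). It was called in all 16 alternatives, with log2 fold changes from 0.69 to 0.97.

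The stretches of 250 bases upstream of the RefSeq transcription starts of these 2 genes (GRCm38.p6) are printed because they belong to the KLF genes that rose. Capitals mark GC boxes, whose letters are GGGCGG, and CACCC boxes, the kinds of element that KLF and SP proteins bind, on either strand, where neighbouring matches run together. The Klf4 stretch is chr4:55532476-55532725 on the minus strand and the Klf15 stretch is chr6:90462326-90462575 on the plus strand, each read 5′ to 3′ towards the start site.
Klf4: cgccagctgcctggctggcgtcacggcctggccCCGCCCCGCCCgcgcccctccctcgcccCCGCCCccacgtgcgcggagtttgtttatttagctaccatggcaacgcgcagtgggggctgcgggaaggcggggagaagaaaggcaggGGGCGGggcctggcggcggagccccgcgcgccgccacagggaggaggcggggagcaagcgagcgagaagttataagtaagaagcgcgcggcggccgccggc
Klf15: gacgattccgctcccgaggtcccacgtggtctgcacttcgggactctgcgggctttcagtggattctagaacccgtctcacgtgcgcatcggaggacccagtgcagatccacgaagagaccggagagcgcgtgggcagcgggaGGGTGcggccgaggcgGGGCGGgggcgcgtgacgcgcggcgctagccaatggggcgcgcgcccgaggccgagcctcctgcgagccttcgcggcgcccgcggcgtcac

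Both stretches are rich in G and C, at 74.0% for Klf4 and 72.0% for Klf15, against a median of 52.4% over all 32851 RefSeq windows. In the window that also takes in 50 bases after the start, Klf4 held 4 GC boxes and no CACCC box, and Klf15 held 1 of each. A window was given for 9 of the 10 genes; the GC box was found in 7 of these and in 35.7% of all windows, and the CACCC box in 7 of these and in 57.5% of all windows. TGACG, the core shared by CREB and ATF sites, was found in 7 of the 9 and in 20.8% of all windows, among them 1 match for Klf4 and 2 for Klf15. The full site TGACGTCA was found in none of the 9 and in 1.79% of all windows. TGANTCA was found in 1 of the 9 (Klf9) and in 7.81% of all windows, and GGGCGTG in 1 of the 9 (Klf13) and in 8.44%. The CACGTG E-box was found in 3 of the 9 (Klf4, Klf6 and Klf15) and in 7.15% of all windows, with 3 matches in the window of Klf15 alone. The CArG box of serum response factor and the composite C/EBP-ATF element TGATGNAA were found in none of the 9, and in 1.63% and 3.97% of all windows. ACANNNTGT, a hormone response site of paired half-sites with a spacer, was also found in none of the 9, and in 6.85% of all windows. Single half-sites were not searched for. These are matches of letters and were not weighed against base composition.

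Among the other activators, Klf6 and Klf7 did not pass. Klf7, which drives axon growth and is on chromosome 1, had 138.9, 152.8, 105.9 and 130.5 CPM in 53BP1 KO libraries, against 108.6, 115.4, 124.0 and 93.2 CPM in controls. The groups overlapped through 53BP1 KO 3 (log2 fold change 0.26, SE 0.12, 95% interval 0.01 to 0.51 before adjustment, edgeR adjusted p = 0.113). Without that library the log2 fold change was 0.35 (edgeR adjusted p = 0.0307). It was 0.18 without control 4, the lowest control (edgeR adjusted p = 0.258), and 0.18 without 53BP1 KO 2 (edgeR adjusted p = 0.289). Klf7 was called in 2 of the 16 alternatives. Klf6, a growth-restraining factor of chromosome 13 that is induced by injury, had 63.1, 49.4, 63.5 and 56.6 CPM in 53BP1 KO libraries, against 63.9, 64.0, 66.9 and 45.7 CPM in controls. The groups overlapped through control 4, while controls 1 to 3 were all above the 53BP1 KO libraries. With all 8 libraries the log2 fold change was -0.05 (SE 0.12, edgeR adjusted p = 0.807), and without control 4 it was -0.17 (SE 0.10, edgeR adjusted p = 0.235). With all 8 libraries the 95% interval of the fold, 0.804 to 1.16, bounds the size of a difference that these libraries could hide. Klf2, on chromosome 8, which endothelial cells and resting T cells express highly, was near the limit of detection. It had 17, 6, 9 and 35 counts in 53BP1 KO libraries and 31, 31, 15 and 13 counts in controls, or 0.833 ± 0.449 CPM in 53BP1 KO libraries and 1.30 ± 0.457 CPM in control libraries (log2 fold change -0.59, SE 0.41, edgeR adjusted p = 0.304). Without 53BP1 KO 4, which holds 35 of the 67 counts of its group, the log2 fold change was -1.04 (edgeR adjusted p = 0.114). With all libraries a fold anywhere between 0.364 and 1.22 lay within the 95% interval.

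The CtBP-binding repressors Klf3 and Klf12 were steady between libraries. Klf3, on chromosome 5, had 345.6, 299.9, 328.4 and 317.5 CPM in 53BP1 KO libraries, against 271.2, 283.9, 293.5 and 253.4 CPM in controls. Each 53BP1 KO library lay above each control, yet the 1.17-fold difference (95% interval 1.03 to 1.33 before adjustment; log2 fold change 0.23, SE 0.08) just missed the threshold at an edgeR adjusted p of 0.0528. Klf3 was called in 5 of the 16 alternatives, and without control 4 its log2 fold change was 0.18 (SE 0.09, edgeR adjusted p = 0.130). A gene on the opposite strand meets its exons in the GENCODE annotation, and 2 such genes meet those of Klf7, so reads could be shared if counting ignored strand. Klf12, on chromosome 14, had 37.8, 38.4, 31.1 and 36.2 CPM in 53BP1 KO libraries, against 30.9, 34.8, 34.2 and 32.2 CPM in controls. The groups overlapped (log2 fold change 0.12, SE 0.10, edgeR adjusted p = 0.400), and Klf12 was called in none of the alternatives.

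Of the Sin3A-binding repressors, Klf13 was higher on average, but a single library carried much of the difference. Klf13, on chromosome 7, known in mice for its part in heart development and in T cells, had 166.8, 148.9, 148.5 and 228.0 CPM in 53BP1 KO libraries, against 143.2, 127.1, 141.6 and 148.9 CPM in controls. Control 4 and the lower 53BP1 KO libraries were level, while 53BP1 KO 4 was far above the rest (log2 fold change 0.30, SE 0.13, edgeR adjusted p = 0.0832). Without 53BP1 KO 4 the log2 fold change was 0.14 (adjusted p = 0.358). Klf10, on chromosome 15, an early response gene of TGF-beta, had 16.9, 17.8, 19.5 and 13.8 CPM in 53BP1 KO libraries, against 23.0, 17.4, 19.3 and 16.9 CPM in controls. The ranges overlapped (log2 fold change -0.18, SE 0.13, edgeR adjusted p = 0.351). Over the alternatives the log2 fold change lay between -0.26 and -0.08.

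Klf9, on chromosome 19, is induced by thyroid hormone and glucocorticoid and takes part in the maturation of neurons. It had 93.2, 92.8, 106.4 and 85.2 CPM in 53BP1 KO libraries, against 122.1, 119.2, 121.5 and 62.1 CPM in controls. Controls 1 to 3 were close together and above all 53BP1 KO libraries, while control 4 lay below all of them. With all 8 libraries Klf9 did not pass (log2 fold change -0.17, SE 0.17, edgeR adjusted p = 0.486). Without control 4 it was lower in 53BP1 KO libraries, with a log2 fold change of -0.37 (SE 0.09, edgeR adjusted p = 0.00518), in a comparison in which 30.2% of all genes tested were called. In the other 15 alternatives it was not called.

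**Figure D2:**
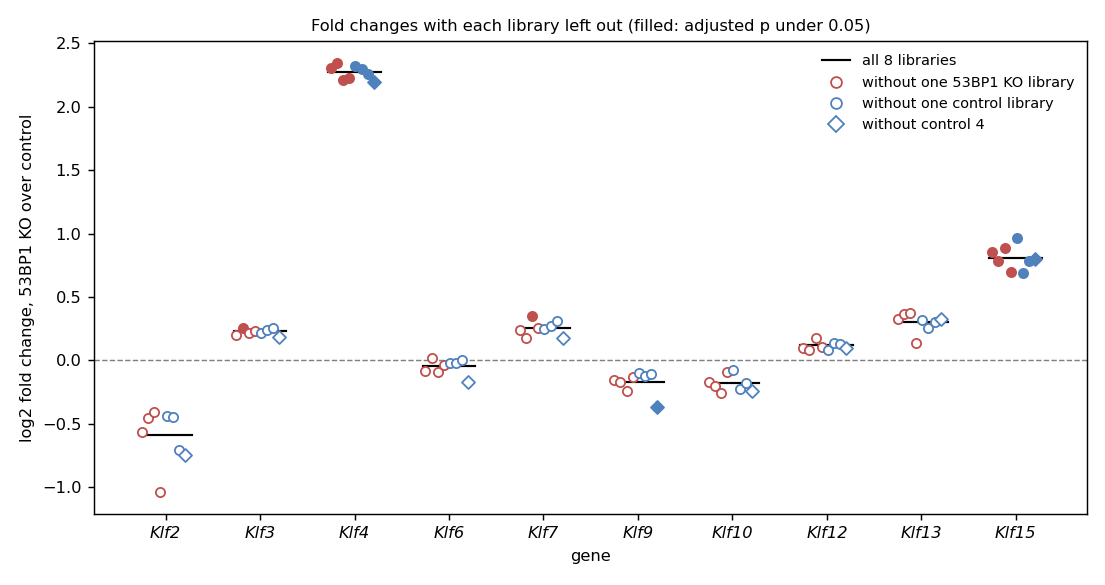
Log2 fold change (53BP1 KO over control) of each KLF gene with all 8 libraries (bar) and with 1 library left out (points; filled where adjusted p was under 0.05). Klf4 and Klf15 were called without any single library, and Klf9 was called only without control 4, at -0.37.

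Control 4 was the lowest of the 4 controls for 7 of the 10 KLF genes, against 30.7% of all genes tested. Against the mean of controls 1 to 3, control 4 differed on the log2 scale by -0.96 for Klf9 and by -0.79 for Klf2, which had few counts. Control 4 differed by -0.51 for Klf6, -0.32 for Klf7 and -0.31 for Klf4, and by 0.12 for Klf13. The immediate early genes, which cells switch on within minutes of stimulation or dissociation, were low in the same library. Control 4 was the lowest control for 14 of the 19 immediate early genes, and their summed level was 992.8 CPM there and between 1419 and 1553 CPM in controls 1 to 3. Fos, for example, had 108.2 CPM in control 4 and between 194.5 and 281.0 CPM in controls 1 to 3. Control 4 also had the highest sum of pericyte and mesenchymal markers, at 119.9 CPM against 40.9 to 46.7 CPM in controls 1 to 3, and the lowest sum of astrocyte markers, at 272.6 CPM against 382.9 to 402.1 CPM. The part of these sums in the KLF values of control 4 was not tested.

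**Figure D3:**
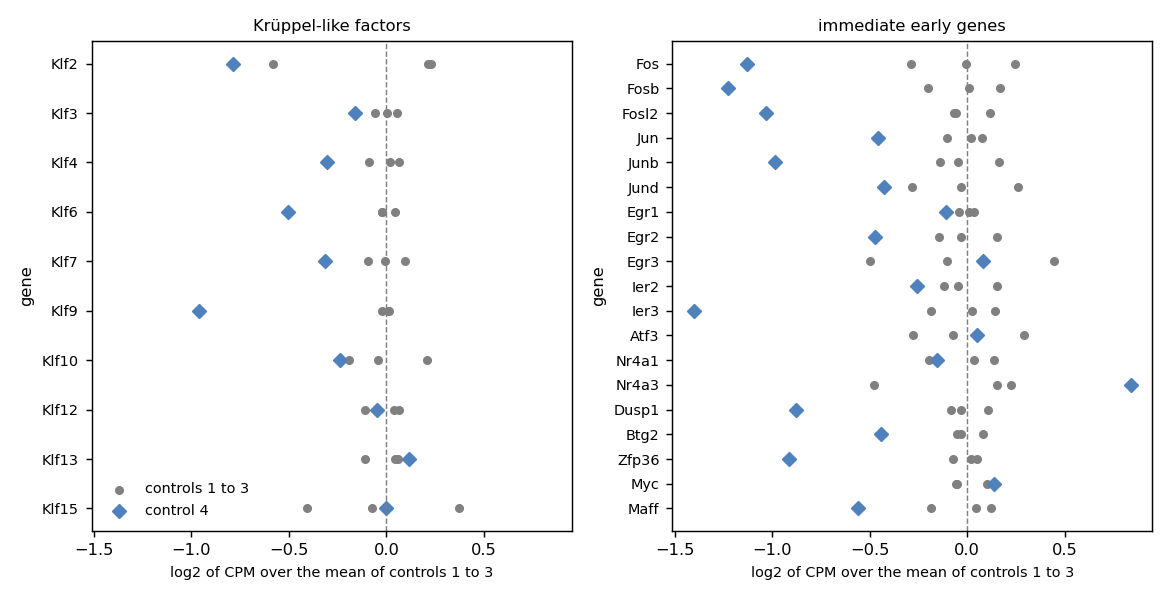
Log2 of CPM over the mean of controls 1 to 3, for the 10 KLF genes (left) and the 19 immediate early genes (right), with grey points for controls 1 to 3 and a diamond for control 4. The diamond is the leftmost point for 7 KLF genes and for 14 immediate early genes.

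Levels of different genes were compared per kb of exon, with exon lengths from GENCODE M21 on GRCm38, an assembly other than that of the counts. In control libraries the order by mean CPM per kb was Klf3 (24.5 ± 1.54), Klf9 (22.1 ± 6.11), Klf13 (18.6 ± 1.24), Klf6 (13.7 ± 2.21), Klf7 (13.6 ± 1.60), Klf4 (5.54 ± 0.613), Klf12 (4.73 ± 0.261), Klf10 (4.58 ± 0.662), Klf15 (2.09 ± 0.469) and Klf2 (0.702 ± 0.248). The ranges over libraries overlapped for Klf3 and Klf9, for Klf6 and Klf7, and for Klf4, Klf12 and Klf10, and control 4 made the range of Klf9 reach those of Klf13, Klf6 and Klf7. In 53BP1 KO libraries Klf4 came second, at 26.8 ± 3.59 CPM per kb, behind Klf3 at 28.7 ± 1.71 CPM per kb, and the ranges of Klf3, Klf4 and Klf13 overlapped. In control libraries it had been sixth. The summed level of the 10 genes was 926.2 ± 41.6 CPM in 53BP1 KO libraries and 768.6 ± 65.6 CPM in control libraries.

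**Figure D4:**
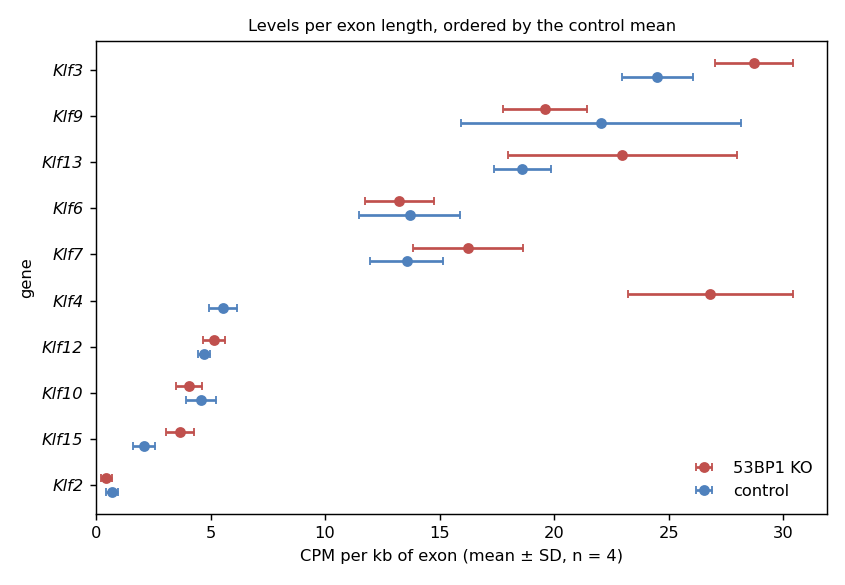
Mean CPM per kb of exon with SD (n = 4) for each KLF gene, 53BP1 KO above control, ordered by the control mean. Klf4 moved next to Klf3 in 53BP1 KO libraries, at 26.8 CPM per kb against 5.54 CPM per kb in control libraries.

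Among the 7 Klf genes outside the 10, Klf11 rose and Klf16 fell; both encode Sin3A-binding repressors. Klf11 had 86.9, 82.1, 80.4 and 95.4 CPM in 53BP1 KO libraries, against 37.5, 36.6, 37.1 and 31.0 CPM in controls. The groups were far apart and tight (log2 fold change 1.28, SE 0.10, edgeR adjusted p = 3.15e-07). Klf16 had 31.6, 30.6, 34.7 and 37.9 CPM in 53BP1 KO libraries, against 49.1, 46.0, 44.4 and 45.8 CPM in controls, again without overlap (log2 fold change -0.46, SE 0.10, edgeR adjusted p = 0.00256). Both were called in all 16 alternatives. Klf5 and Klf8 were tested at mean levels under 1 CPM and did not pass, and Klf1, Klf14 and Klf17 had too few counts to be tested. Of the 6 SP genes tested, which encode the sister family with the same kind of zinc fingers, Sp1 was lower, at 443.6 ± 29.9 CPM in 53BP1 KO libraries and 522.2 ± 20.6 CPM in control libraries (log2 fold change -0.24, SE 0.08, edgeR adjusted p = 0.0443). This call was lost in 8 of the 16 alternatives, 6 of which left out a library (53BP1 KO 1, 3 or 4, or control 1, 2 or 3). Sp2, Sp3, Sp4, Sp8 and Sp9 did not pass.

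**Figure D5:**
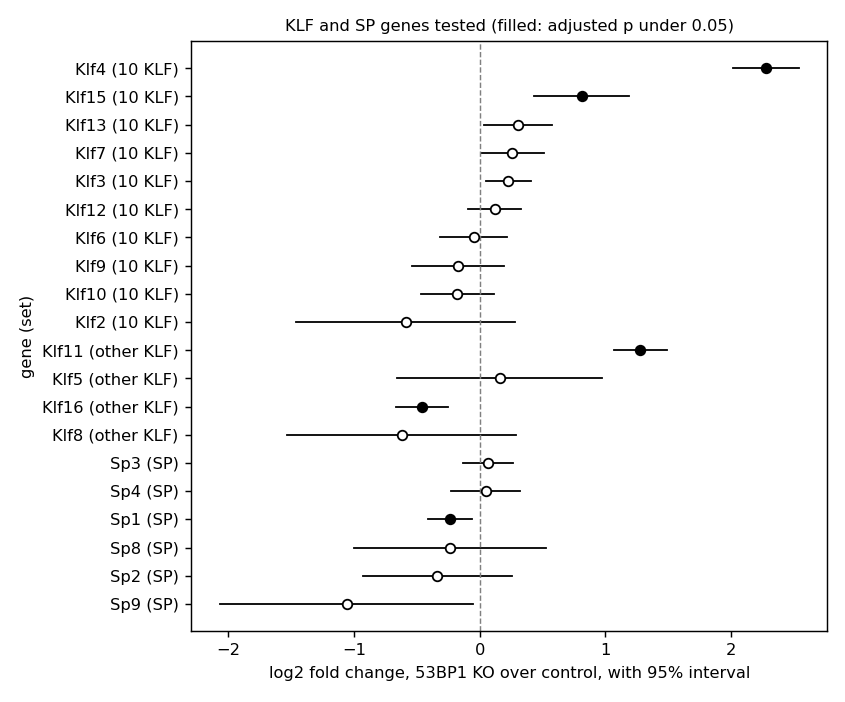
Log2 fold change (53BP1 KO over control) with its unadjusted 95% interval for the 10 KLF genes, the other KLF genes and the SP genes that could be tested; filled points had an adjusted p under 0.05. Klf4 at 2.27, Klf11 at 1.28 and Klf15 at 0.81 lay to the right, and Klf16 at -0.46 and Sp1 at -0.24 to the left.

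Of 11 corepressors and coactivators tested, 1 rose and 1 fell (median log2 fold change 0.09). Ctbp2, a CtBP corepressor, fell to 11.1 ± 1.40 CPM in 53BP1 KO libraries, against 16.6 ± 1.50 CPM in control libraries (log2 fold change -0.57, SE 0.12, edgeR adjusted p = 0.00318), and Kat2b, a histone acetyltransferase, rose (0.39, SE 0.11). The call of Kat2b was lost without 53BP1 KO 4, 2 genes rose without control 1 and 2 fell without 53BP1 KO 2. Of 12 genes of the ERK5-MEF2 route that induces Klf2 and Klf4, and of ubiquitin ligases that degrade KLF proteins, 1 rose and none fell (median -0.11). It was Vhl, whose product directs ubiquitination (log2 fold change 0.57, SE 0.10, edgeR adjusted p = 0.000885), while Mapk7, the gene of ERK5, had 4.73 CPM in 53BP1 KO libraries and 4.73 CPM in control libraries. Without 53BP1 KO 2 the list had 2 falls and without control 4 it had 1.

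Immediate early genes share their inducers with Klf4, Klf6 and Klf10. Of 19 tested, 5 rose and 1 fell (median log2 fold change 0.31, or 0.20 without control 4), while 16.1% rose among all genes tested. Atf3 rose most (log2 fold change 2.92, SE 0.16), Ier2 (0.64, SE 0.12) and Nr4a1 (0.49, SE 0.11) rose less, and Myc fell (-0.43, SE 0.10). Fos had a log2 fold change of 0.45 and Jun of -0.09, and neither passed. The 5 rises became 3 without 53BP1 KO 4, where 11.3% of all genes tested rose, and 2 genes fell without control 1 or control 4. Of 11 genes of the glucocorticoid and thyroid hormone response, which induces Klf9 and Klf15, 3 rose and 1 fell (median 0.20, or between 0.07 and 0.23 with 1 library left out). Tsc22d3, a glucocorticoid-induced leucine zipper gene, rose to 28.1 ± 2.91 CPM in 53BP1 KO libraries, against 8.94 ± 0.932 CPM in control libraries (log2 fold change 1.65, SE 0.12). Fkbp5, another glucocorticoid target, fell (-0.75, SE 0.14). The receptor genes Thra (0.53, SE 0.10) and Nr3c1 (0.24, SE 0.08) rose, though the call of Nr3c1 was lost in 10 of the 16 alternatives, and 2 genes fell without control 4. Of 11 genes of the TGF-beta route that induces Klf10, 1 fell and none rose (median 0.08). The fall was that of Smad2 (-0.25, SE 0.09), whose call was lost when any 1 library other than control 1 was left out, and 1 gene rose without control 3 or control 4.

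Genes known as targets of single KLF proteins were also listed. Of 10 cell cycle genes linked to KLF4 or KLF6, 2 rose and 4 fell (median log2 fold change -0.31, or -0.16 without control 1). With 1 library left out, 2 to 3 rose and 3 to 5 fell, with 3 rises without 53BP1 KO 1 and 5 falls without control 4. Ccne1 (-1.51, SE 0.13), Ccnd1 (-1.13, SE 0.13) and Ccnb1 (-0.55, SE 0.10), all cyclin genes, fell, and the inhibitor gene Cdkn1b rose (0.61, SE 0.08). Cdkn1a, the p21 gene that KLF4 is known to activate, had 35.3 ± 2.02 CPM in 53BP1 KO libraries and 47.9 ± 20.7 CPM in control libraries and did not pass (-0.44, SE 0.23). Controls 1 to 3 had 74.5, 45.4 and 47.8 CPM of Cdkn1a, above every 53BP1 KO library. Control 4, at 24.0 CPM, lay below all of them, and the fold change without control 4 is not given here. Of 5 neurite growth genes linked to KLF6 and KLF7, Ntrk2, the gene of the neurotrophin receptor TrkB, rose (0.86, SE 0.11), Plat, which encodes tissue plasminogen activator, rose (0.71, SE 0.10), and none fell. Of 10 genes of branched-chain amino acid and proline catabolism linked to KLF15, 4 rose and none fell (median 0.31, or 0.23 without control 4). They were Bcat1 (1.64, SE 0.16), Aldh6a1 (0.99, SE 0.17), Gpt2 (0.91, SE 0.12) and Bckdha (0.77, SE 0.10). Bcat2 and Prodh, the members best known as KLF15 targets in muscle, did not pass. Bcat2 rested on 50 counts in 53BP1 KO libraries and 69 in control libraries, which limits what its values can show. Of 4 reprogramming partners of KLF4 that could be tested, Sox2 rose (0.78, SE 0.10) and Tbx3, at under 2 CPM, fell (-1.92, SE 0.51), with 2 rises without control 2 or control 4. Pou5f1, Nanog, Esrrb, Lin28a and Sall4 had too few counts to be tested.

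Markers of the sorted cells were high: Fabp7, whose product the dye binds, had 7793 CPM in 53BP1 KO libraries and 7591 CPM in control libraries. Of 8 progenitor markers 5 rose and 2 fell (3 rose without 53BP1 KO 3, 53BP1 KO 4 or control 3), and of 8 neuronal markers 2 rose and 2 fell (1 rose when any 1 library other than 53BP1 KO 2 or control 4 was left out). Of 7 astrocyte markers tested 6 rose and none fell, and the 8 listed summed to between 1018 and 1170 CPM in 53BP1 KO libraries and between 272.6 and 402.1 CPM in control libraries. These sums did not overlap, as the values of Klf4, Klf11 and Klf15 did not, and their part in those rises was not tested. Of 7 oligodendrocyte lineage markers 3 rose and 2 fell. Endothelial markers, among cells in which Klf2 and Klf4 are known to be high, summed to between 4.70 and 9.67 CPM in 53BP1 KO libraries and between 11.1 and 18.1 CPM in control libraries, with 2 of 5 tested lower and none higher. Their part in the values of Klf2 and Klf4 was not tested. Pericyte and mesenchymal markers summed to between 20.7 and 23.8 CPM in 53BP1 KO libraries and between 40.9 and 119.9 CPM in control libraries, with 4 of 7 lower. Microglial and leukocyte markers summed to at most 7.67 CPM in 53BP1 KO libraries and 8.96 CPM in control libraries, erythroid markers to at most 3.31 CPM in 53BP1 KO libraries and 3.69 CPM in control libraries. Epithelial markers, in whose cells Klf4 is also high, summed to at most 1.57 CPM in 53BP1 KO libraries and 2.44 CPM in control libraries. Without 53BP1 KO 2, 1 microglial and 1 erythroid marker were lower in 53BP1 KO libraries. None of the epithelial markers had enough counts to be tested, and Hba-a1 and Hba-a2 were at 0 in every library.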

How the data were processed

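RNA was measured in 8 libraries, 4 labelled 53BP1 KO and 4 control, from total RNA with a strand-marking kit and read from both ends, per the labels' protocols. The authors deposited raw read counts per gene for all libraries in 1 table; CASAVA, HTSeq 0.6.1p1 and the builds mm9 and NCBIM37 are named in the submitters' processing notes, while no aligner, nor whether counting used strand, is named there. Counting error alone limits values near 3 counts.

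From these counts, genes were filtered with filterByExpr, scaled by TMM and tested with edgeR 4.0.16 (glmQLFit and glmQLFTest, R 4.3.3), 53BP1 KO over control, over all 15021 genes tested, with Benjamini-Hochberg adjustment at 0.05. SE is the absolute log2 fold change divided by the square root of F, and 95% intervals are unadjusted. The tests were checked on simulated counts. Alternatives were other scalings and filters, robust dispersion, DESeq2 1.42.0, voom with sample quality weights (limma 3.58.1), a replicate block and leaving out each library.

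All 10 genes are named, and from each list up to 4 called genes of smallest p; Fos, Jun, Mapk7, Cdkn1a, Bcat2, Prodh, Fabp7 and genes listed as untested were named after their values were seen. Genes like Klf4 were the 3 closest whose higher group averaged 5 CPM or more. The 10 genes and all lists were chosen with earlier results of these data known. Promoter windows and names came from RefSeq (GRCm38.p6), a build other than that of the counts, matched by symbol; protein sequences were not used here. No 2 libraries agreed within sampling noise.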

Additional observations from a re-analysis of the deposited data

Results flagged for a closer look

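Klf6 and Klf9 each had 1 control library far from the other 3. Control 4 had 45.7 CPM of Klf6, and its gap to the nearest control was 0.858 of the range of the group, above Dixon's 95% critical value for 4 samples. Control 4 had 62.1 CPM of Klf9, with a gap of 0.953 of the range. These were 2 of the 20 groups of 4 libraries looked at, and chance flags about 1 in 20. What set control 4 apart was not tested.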

How the results depend on the processing

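With 16 alternatives, 1051 values of 66 named genes were recomputed: 997 kept their direction and their side of the threshold, 16 gained a call and 38 lost one. Of the 10 KLF genes, 2 were called, all higher. Without a filter on low counts 5 were called, all higher. With voom and sample quality weights 4 were called, all higher, and the cause was not tested. Leaving out 1 library gave 2 to 3 called, 2 to 3 higher and 0 to 1 lower. The number of genes called in the whole table lay between 3250 and 4625 with 1 library left out, or between 21.0% and 30.2% of those tested. Without the filter the median log2 fold change of all genes was -0.13, against 0.00 with it.

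Deviations of same-numbered libraries from their group means correlated at 0.276, 0.300, -0.148 and 0.003 for replicates 1 to 4. Pairs with different numbers lay between -0.335 and 0.185, so replicates 1 and 2 gave the highest values of all pairs. These correlations cannot settle whether the numbers pair the samples, and the main fit used no pairing. With the replicate block 2 KLF genes were called, both higher, and 4177 genes in all. Klf2 rests on 67 counts in 53BP1 KO libraries and 90 in control libraries, which limits what its values can show.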
